A study of Rattus norvegicus with 20 samples.

Results

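The levels of 8 oligodendrocyte lineage genes were followed through 20 expression arrays of the rat ventral hippocampus. They were Pdgfra, Cspg4, Vcan, Bcas1, Olig1, Olig2, Sox10 and Gpr17, chosen by name. A gene was represented by the probe set whose only gene symbol was its own. Each of the 8 genes had 1 such probe set, and all 8 were among the 15465 genes tested, of 22093 genes named on the array.

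All rats were male Sprague-Dawley rats, 2 months old, and all received an injection on both sides into the ventral hippocampus, the part of the hippocampus tied to emotional behaviour. Mimic rats received 200 pmol of a synthetic miR-17-5p mimic, a double-stranded RNA that supplies this microRNA, in 1.5 µl of water. Control rats received a scrambled small RNA, whose dose the labels do not give. RNA came from whole homogenate or from synaptoneurosomes, a preparation enriched in resealed synaptic endings that also carries other cell parts, so that 4 groups of 5 arrays arose, a control and a mimic group for each fraction. The time between injection and tissue collection is not given in the sources used here, nor whether the 5 arrays of a group came from 5 animals, so the p-values cover the spread among these arrays, which may be technical. Values are the authors' log2 RMA values, in which a step of 1 is a doubling, and levels of different genes were not compared because each has its own probes.

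Oligodendrocyte precursors are dividing glial cells, spread through grey and white matter, that receive synapses from neurons and give rise to myelinating oligodendrocytes. Platelet-derived growth factor, acting on the receptor encoded by Pdgfra, keeps them dividing, and the proteoglycans encoded by Cspg4 and Vcan lie on and around them. The transcription factors Olig1, Olig2 and Sox10 act from precursor to mature cell, while Gpr17 and Bcas1 mark cells that have begun to differentiate.

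The agent is shown first, as its mature sequence with bases 2 to 8, the seed that pairs with target mRNAs, in capitals. The RefSeq rat set (GRCr8) holds 4 other mature microRNAs with the same seed, and 2 of them are printed because they share the seed but differ in bases outside it.
rno-miR-17-5p: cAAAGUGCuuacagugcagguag
rno-miR-20a-5p: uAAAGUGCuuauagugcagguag
rno-miR-106b-5p: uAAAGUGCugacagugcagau
The gene of rno-miR-17-5p lies on chromosome 15, and an identical mature sequence is annotated on chromosome X.

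The 250 bases before the annotated start are shown for Pdgfra, Gpr17 and Cspg4, and for Olig2, which differed between fractions in the opposite direction. Within groups the first 3 varied together over the 20 arrays, with Pearson's r from 0.64 to 0.78. Without 3 synaptoneurosome arrays named below r ran from 0.46 to 0.54, and in the 10 homogenate arrays from 0.18 to 0.73. The RefSeq promoter table (GRCr8) matched 5 of the 8 genes, Vcan being the fifth. Capitals mark an E-box, CANNTG, the element bound by basic helix-loop-helix factors such as Olig2, or a SOX core, ACAAAG or ACAAT, on either strand.
Pdgfra (chr14:33408517-33408766, minus strand): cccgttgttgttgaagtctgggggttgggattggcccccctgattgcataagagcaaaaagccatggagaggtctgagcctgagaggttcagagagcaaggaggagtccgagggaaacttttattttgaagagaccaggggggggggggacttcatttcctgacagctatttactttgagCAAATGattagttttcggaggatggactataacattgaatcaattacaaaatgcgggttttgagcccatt
Gpr17 (chr18:23857382-23857631, minus strand): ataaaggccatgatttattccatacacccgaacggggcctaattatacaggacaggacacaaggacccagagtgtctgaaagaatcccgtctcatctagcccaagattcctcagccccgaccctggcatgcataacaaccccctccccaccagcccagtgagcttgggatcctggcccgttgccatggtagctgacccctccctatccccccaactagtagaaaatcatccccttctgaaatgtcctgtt
Cspg4 (chr8:66160692-66160941, plus strand): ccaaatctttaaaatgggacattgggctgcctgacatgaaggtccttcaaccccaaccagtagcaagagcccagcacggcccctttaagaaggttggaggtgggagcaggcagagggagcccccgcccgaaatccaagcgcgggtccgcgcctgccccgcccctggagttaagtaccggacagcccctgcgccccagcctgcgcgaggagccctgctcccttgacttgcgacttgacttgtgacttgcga
Olig2 (chr11:43961335-43961584, plus strand): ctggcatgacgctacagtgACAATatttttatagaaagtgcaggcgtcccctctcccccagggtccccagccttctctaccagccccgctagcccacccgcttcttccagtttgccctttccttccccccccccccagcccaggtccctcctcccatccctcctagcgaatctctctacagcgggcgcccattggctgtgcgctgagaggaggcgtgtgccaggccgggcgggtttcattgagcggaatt
Pdgfra held 1 E-box, beginning 70 bases before the start used, and Olig2 held 1 ACAAT, beginning 231 bases before its start. The Pdgfra window overlaps the annotated gene, which extends to position 33408604 on chromosome 14, and the E-box lies within that overlap. The Gpr17 and Cspg4 windows held neither motif. Among 33469 windows of the same length, 65.5% held an E-box, 16.3% held ACAAAG and 30.0% held ACAAT. A match is only a run of letters, and its absence says nothing of binding.

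In control rats, 3 of the 8 genes were higher in synaptoneurosomes than in homogenate (Vcan, Bcas1 and Cspg4), 2 were lower (Olig2 and Sox10), and Pdgfra, Gpr17 and Olig1 did not pass the test. Of all genes tested, 11.8% were called higher and 28.0% lower by the same rule, a limma adjusted p below 0.05. In mimic rats the counts were again 3 higher and 2 lower, for the same 5 genes, where 11.0% of all genes were called higher and 30.8% lower. The genes called higher encode surface, matrix and cytoplasmic proteins, and both genes called lower encode nuclear transcription factors. Olig1, which also encodes such a factor, was not called, nor were the surface receptor genes Pdgfra and Gpr17. A split by protein class was not tested, and 2 of 8 lower did not exceed the share over all tested genes. The median difference over the 8 genes was 0.43 in control and 0.19 in mimic rats, beside medians over all tested genes of -0.06 and -0.08. Without synaptoneurosome control 4, control 5 and mimic 5, which stood apart, the medians of the 8 genes were 0.21 and 0.01. Both fractions were bulk samples, so a difference between them gives neither cell numbers nor RNA per cell. The source of these differences was not tested. Under quantile scaling of the arrays the calls fell to 3 of 8 in each treatment, since Olig2 and Sox10 stayed lower but missed the threshold.

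**Figure D1:**
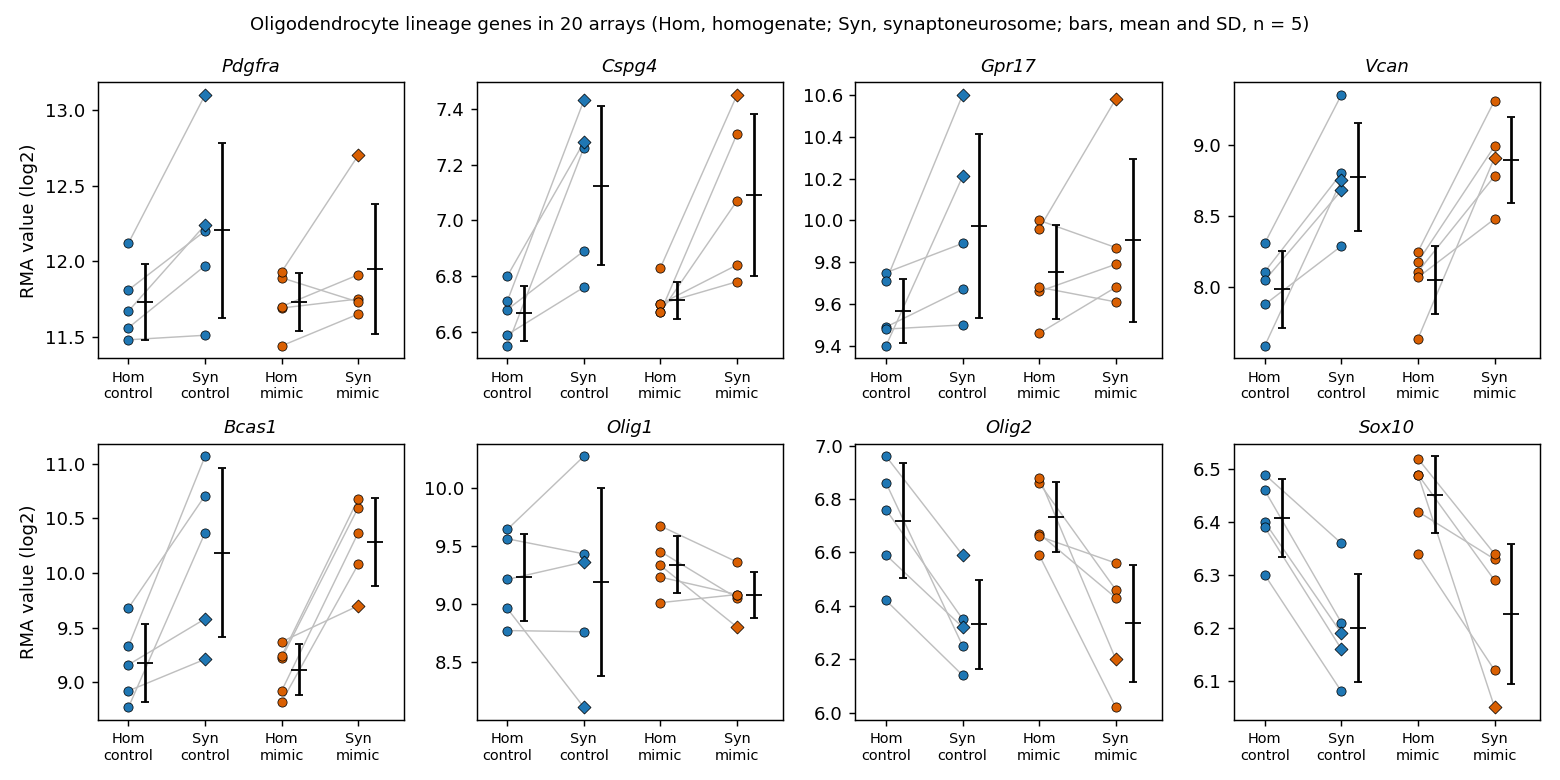
Log2 RMA values of the 8 genes in all 20 arrays, with a panel per gene and its own vertical axis; points are arrays, grey lines join the homogenate and synaptoneurosome arrays of the same treatment and number, bars give mean and SD (n = 5), and diamonds mark synaptoneurosome control 4, control 5 and mimic 5. All 10 lines rise for Vcan, Bcas1 and Cspg4, and all 10 fall for Olig2 and Sox10.

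Before the genes are described singly, 3 arrays need naming. Synaptoneurosome control 4, control 5 and mimic 5 stood apart on the first component of the variation within groups, which held 52.2% of it. Their scores were 30.2, 45.1 and 53.0, while the other 17 arrays lay between -29.4 and 5.6. With these 3 arrays left out, the same 5 genes were called in each treatment. Their values without the 3 arrays are given below where they moved.

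Vcan encodes versican, a secreted chondroitin sulphate proteoglycan of the matrix around precursors and synapses. In homogenate its log2 values were 7.88, 8.11, 8.31, 8.05 and 7.59 in control arrays 1 to 5 and 8.11, 8.07, 8.25, 8.18 and 7.64 in mimic arrays. In synaptoneurosomes they were 8.29, 8.80, 9.35, 8.68 and 8.75 in control arrays and 8.78, 8.48, 9.31, 8.99 and 8.91 in mimic arrays. Every synaptoneurosome array was above its own-numbered homogenate array, and the groups overlapped only in control rats, by the lowest synaptoneurosome array. The difference was 0.79 ± 0.18 in control rats (SE, n = 5 per group, limma adjusted p = 0.00224, 1.72-fold) and 0.84 ± 0.18 in mimic rats (adjusted p = 0.0011, 1.80-fold). Exact permutation tests gave p = 0.0159 and p = 0.00794, two-sided, the second being the smallest that 5 against 5 arrays allow. Leaving out the 3 arrays gave 0.83 and 0.84.

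Bcas1, a gene switched on in early myelinating oligodendrocytes, showed the largest of the 8 differences in both treatments. Homogenate values were 8.77, 9.68, 9.33, 8.92 and 9.16 in control and 8.92, 8.82, 9.22, 9.24 and 9.37 in mimic arrays. Synaptoneurosome values were 10.37, 10.71, 11.07, 9.21 and 9.58 in control and 10.37, 10.08, 10.60, 10.68 and 9.70 in mimic arrays. The lowest synaptoneurosome arrays were control 4, control 5 and mimic 5, and the mimic groups did not overlap. The difference was 1.02 ± 0.29 in control rats (n = 5 per group, limma adjusted p = 0.00933, 2.02-fold) and 1.17 ± 0.29 in mimic rats (adjusted p = 0.00311, 2.25-fold), with two-sided exact permutation p = 0.0476 and 0.00794. It was larger without the 3 arrays, 1.54 ± 0.20 in control and 1.32 ± 0.18 in mimic rats. Among all tested genes, the differences with all 20 arrays ranked at percentiles 98.0 and 99.4.

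Cspg4 encodes NG2, the transmembrane proteoglycan that gives precursors the name NG2 cells and that pericytes also carry. Its homogenate values were close together, 6.59, 6.68, 6.55, 6.71 and 6.80 in control and 6.70, 6.70, 6.67, 6.67 and 6.83 in mimic arrays. The synaptoneurosome values were 6.76, 6.89, 7.26, 7.43 and 7.28 in control and 6.78, 6.84, 7.07, 7.31 and 7.45 in mimic arrays. Each of the 10 same-number pairs was higher in synaptoneurosomes, and the groups of each treatment overlapped at their edges. The difference was 0.46 ± 0.13 in control rats (n = 5 per group, limma adjusted p = 0.0092) and 0.38 ± 0.13 in mimic rats (adjusted p = 0.0257), and the two-sided exact permutation p was 0.0159 in each. With the 3 arrays left out it was 0.30 ± 0.12 (adjusted p = 0.044) and 0.29 ± 0.11 (adjusted p = 0.0342). The mimic call was lost without homogenate mimic 4, synaptoneurosome mimic 4 or synaptoneurosome mimic 5 (limma adjusted p = 0.0511, 0.0728 and 0.0749) and under median scaling (0.31, adjusted p = 0.0896). Pericytes express Cspg4 too, and of 10 tested pericyte and smooth muscle genes 7 fell in each treatment and none rose. Over all tested genes 28.0% fell in control and 30.8% in mimic rats. The mean level of the pericyte list ran from 7.36 to 8.04 in homogenate control and from 6.34 to 7.00 in synaptoneurosome control. In mimic rats it ran from 7.39 to 7.66 and from 6.38 to 6.50. The part of pericytes in the Cspg4 values was not tested.

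Pdgfra encodes the receptor through which platelet-derived growth factor acts on precursors, and it is also expressed by fibroblasts. Homogenate values were 11.48, 11.81, 11.56, 11.67 and 12.12 in control and 11.44, 11.69, 11.70, 11.89 and 11.93 in mimic arrays. In synaptoneurosomes the control arrays gave 11.51, 12.20, 11.97, 12.24 and 13.10 and the mimic arrays 11.65, 11.75, 11.91, 11.73 and 12.70. The highest array of each synaptoneurosome group was number 5, and homogenate and synaptoneurosome groups overlapped. The difference was 0.48 ± 0.23 in control rats (n = 5 per group, limma adjusted p = 0.113) and 0.22 ± 0.23 in mimic rats (adjusted p = 0.48), which passed in neither. All 5 control pairs were higher in synaptoneurosomes, by 0.03 to 0.98, and 4 of 5 mimic pairs were. With the replicate number within treatment as a block, the control difference passed, at 0.48 ± 0.14 (limma adjusted p = 0.0184). It also passed without synaptoneurosome control 1 (0.65, adjusted p = 0.0283). Without the 3 arrays it was 0.17 ± 0.15 in control and 0.03 ± 0.14 in mimic rats. The mean level of 10 fibroblast genes ran from 6.29 to 7.56 in homogenate control and from 6.27 to 8.0 in synaptoneurosome control, where the maximum was array 5, the array highest in Pdgfra. In mimic rats it ran from 6.42 to 6.69 in homogenate and from 6.14 to 6.85 in synaptoneurosomes, where array 5 was again highest. Synaptoneurosome control 5 and mimic 5 are among the 3 arrays that stood apart over all genes. In homogenate the maxima did not match: the fibroblast level was highest in control 2 and mimic 4, and Pdgfra in control 5 and mimic 5. The part of fibroblasts in the Pdgfra values was not tested.

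Gpr17 encodes a G protein-coupled receptor of committed precursors that is lost as they mature. Homogenate values were 9.49, 9.48, 9.75, 9.40 and 9.71 in control and 9.66, 9.68, 9.46, 10.00 and 9.96 in mimic arrays. Synaptoneurosome values were 9.67, 9.50, 9.89, 10.21 and 10.60 in control and 9.79, 9.61, 9.68, 9.87 and 10.58 in mimic arrays. Again array 5 was the highest of each synaptoneurosome group, and the groups overlapped. The difference was 0.41 ± 0.19 in control rats (n = 5 per group, limma adjusted p = 0.101) and 0.15 ± 0.19 in mimic rats (adjusted p = 0.551). All 5 control pairs were higher in synaptoneurosomes, by 0.02 to 0.89, against 3 of 5 mimic pairs. The block within treatment brought the control difference past the threshold (0.41 ± 0.14, limma adjusted p = 0.0414), as did leaving out synaptoneurosome control 2 (0.53, adjusted p = 0.0376) or synaptoneurosome mimic 5 (adjusted p = 0.0497). Without the 3 arrays it was 0.12 ± 0.12 in control and -0.01 ± 0.11 in mimic rats.

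Olig2, the basic helix-loop-helix factor needed to specify the lineage, was lower in synaptoneurosomes. Homogenate values were 6.42, 6.76, 6.86, 6.59 and 6.96 in control and 6.86, 6.59, 6.67, 6.66 and 6.88 in mimic arrays. Synaptoneurosome values were 6.14, 6.35, 6.25, 6.32 and 6.59 in control and 6.46, 6.02, 6.43, 6.56 and 6.20 in mimic arrays. All 10 pairs fell, by 0.27 to 0.61 in control and by 0.10 to 0.68 in mimic rats, and the mimic groups did not overlap. The difference was -0.39 ± 0.12 in control rats (n = 5 per group, limma adjusted p = 0.0124, 1.31-fold lower) and -0.40 ± 0.12 in mimic rats (adjusted p = 0.0096, 1.32-fold lower), with two-sided exact permutation p = 0.0238 and 0.00794. Under quantile scaling it was -0.24 (limma adjusted p = 0.158) and -0.27 (adjusted p = 0.118).

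Sox10, the factor that drives myelin gene transcription, had the smallest of the differences called. Homogenate values were 6.30, 6.46, 6.49, 6.40 and 6.39 in control and 6.42, 6.49, 6.34, 6.52 and 6.49 in mimic arrays. Synaptoneurosome values were 6.08, 6.21, 6.36, 6.19 and 6.16 in control and 6.33, 6.29, 6.12, 6.34 and 6.05 in mimic arrays. All 10 pairs fell while the groups overlapped slightly. The difference was -0.21 ± 0.07 in control rats (n = 5 per group, limma adjusted p = 0.0209, 1.16-fold lower) and -0.23 ± 0.07 in mimic rats (adjusted p = 0.0119), with exact permutation p = 0.0159 in each. The control call was lost without homogenate control 3 (limma adjusted p = 0.0522) or synaptoneurosome control 1 (adjusted p = 0.0538), and with array weights (adjusted p = 0.0549). Under quantile scaling the differences were -0.08 (adjusted p = 0.42) and -0.11 (adjusted p = 0.223).

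Olig1, the partner of Olig2 on chromosome 11 that acts later in differentiation and repair, did not differ past the threshold. Homogenate values were 8.77, 9.64, 9.56, 8.96 and 9.21 in control and 9.45, 9.23, 9.01, 9.67 and 9.33 in mimic arrays. Synaptoneurosome values were 8.76, 10.27, 9.43, 8.11 and 9.36 in control and 9.05, 9.08, 9.08, 9.36 and 8.80 in mimic arrays. The control synaptoneurosome arrays held both the highest and the lowest value of all 20, with an SD of 0.81 against 0.37 in homogenate. The difference was -0.04 ± 0.28 in control rats (n = 5 per group, limma adjusted p = 0.917, 95% interval from -0.63 to 0.54) and -0.26 ± 0.28 in mimic rats (adjusted p = 0.473). The control value turned to 0.26 without the 3 arrays.

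**Figure D2:**
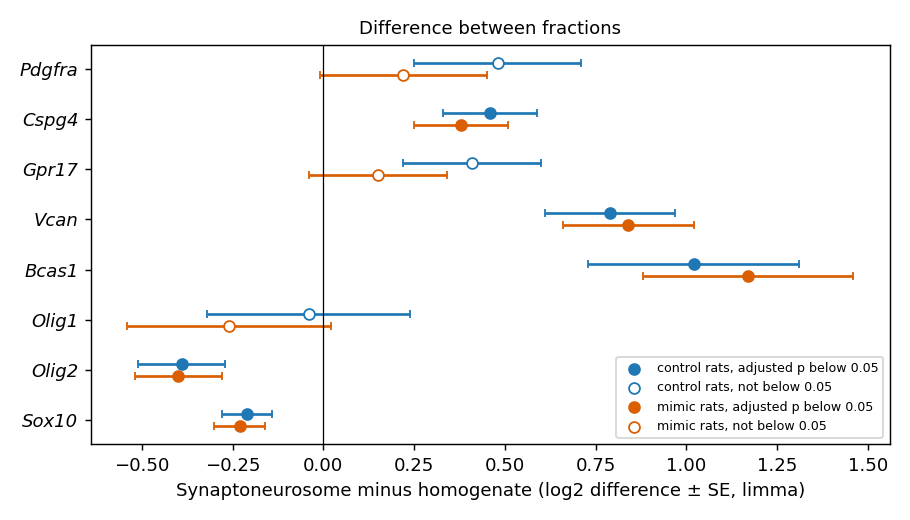
Synaptoneurosome minus homogenate log2 difference with its SE for each of the 8 genes (limma, n = 5 per group), in control rats (blue) and mimic rats (orange), filled where the adjusted p was below 0.05. Bcas1 and Vcan lie farthest to the right, at 1.02 and 0.79 in control rats, and Olig2 lies farthest to the left, at -0.39.

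The comparison of mimic with control asks whether the levels differ once the microRNA is supplied. None of the 8 genes was called by limma in homogenate, in synaptoneurosomes, or when the mimic effect was compared between the fractions, where 0% of all tested genes were called in each. At an unadjusted p below 0.05 there were 268, 542 and 243 genes over all tested, and none of the 8. In homogenate the differences ran from -0.06 ± 0.29 for Bcas1 to 0.19 ± 0.19 for Gpr17 (all adjusted p = 1). In synaptoneurosomes they ran from -0.26 ± 0.23 for Pdgfra (adjusted p = 0.933) to 0.12 ± 0.18 for Vcan (adjusted p = 0.936). Control and mimic groups overlapped for each gene in each fraction, and two-sided exact permutation tests with n = 5 per group gave p from 0.214 to 1 in homogenate and from 0.452 to 0.992 in synaptoneurosomes.

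The intervals show how large a difference these arrays would still allow. They were narrowest for Sox10 and Olig2: the 95% interval of mimic minus control in homogenate ran from -0.10 to 0.19 for Sox10 and from -0.23 to 0.26 for Olig2. For Olig1, the third transcription factor, it ran from -0.48 to 0.70. For Pdgfra it ran from -0.49 to 0.49 in homogenate and from -0.75 to 0.24 in synaptoneurosomes. For Bcas1 it ran from -0.66 to 0.55 and from -0.51 to 0.70. Synaptoneurosome minus homogenate mimic effects lay between -0.26 ± 0.33 for Pdgfra and 0.16 ± 0.41 for Bcas1 (limma adjusted p = 0.998 for all 8). 

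**Figure D3:**
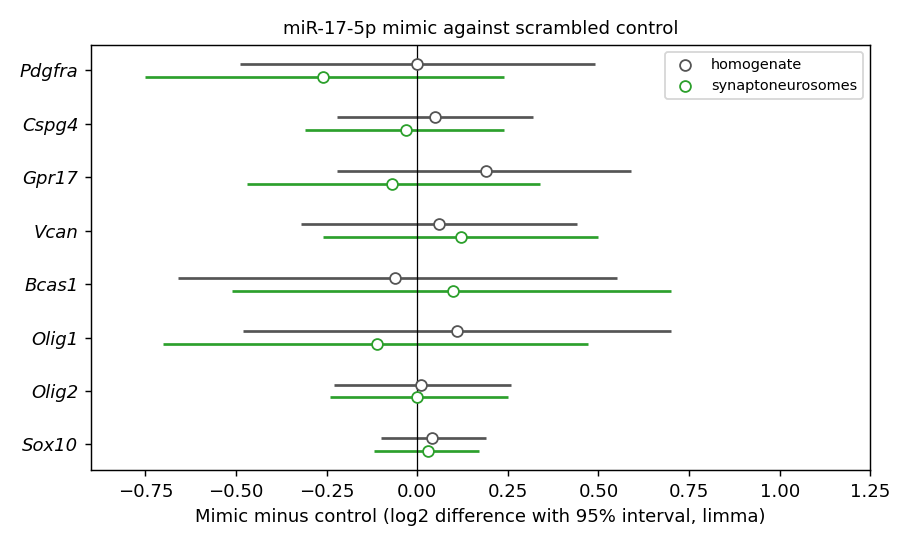
Mimic minus control log2 difference with its 95% interval for the 8 genes (limma, n = 5 per group), in homogenate (grey) and synaptoneurosomes (green). Each interval includes 0; those of Sox10 and Olig2 are the narrowest, and those of Bcas1 and Olig1 the widest.

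Within groups the 8 genes did not vary as a block. Over the 20 arrays, after each group mean was subtracted, Pearson's r was 0.78 between Pdgfra and Gpr17, 0.69 between Cspg4 and Gpr17 and 0.64 between Pdgfra and Cspg4. Bcas1 followed Olig1 (r = 0.67) and ran against Gpr17 (r = -0.50). Vcan was unrelated to Pdgfra (r = 0.00). These are descriptions over arrays that share preparation and scaling. Without the 3 arrays (17 left), r was 0.46 for Pdgfra with Gpr17, 0.51 for Cspg4 with Gpr17, 0.54 for Pdgfra with Cspg4 and 0.59 for Bcas1 with Olig1, and -0.06 for Bcas1 with Gpr17. In the 10 homogenate arrays alone, r was 0.48 for Pdgfra with Gpr17, 0.18 for Cspg4 with Gpr17 and 0.73 for Pdgfra with Cspg4. There Bcas1 had r = 0.69 with Olig1 but 0.32 with Gpr17, and Vcan had -0.57 with Pdgfra.

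The split was also described against the first component of all tested genes, which was computed from the same deviations and is no separate evidence. Scores ran from -4.1 to 5.6 in homogenate and from -29.4 to 53.0 in synaptoneurosomes, so the latter weigh most in r. Deviations of Gpr17, Pdgfra and Cspg4 rose with the score (r = 0.89, 0.83 and 0.75 over 20 arrays), whereas those of Bcas1 fell with it (r = -0.72). Olig1 and Sox10 had r = -0.34 and -0.36, Olig2 had 0.20 and Vcan -0.03. In the 3 arrays that stood apart Gpr17 and Cspg4 were thus above their group means, Pdgfra was so in both arrays numbered 5, Bcas1 was below its group means, and Vcan was close to them. The source of this component was not tested.

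**Figure D4:**
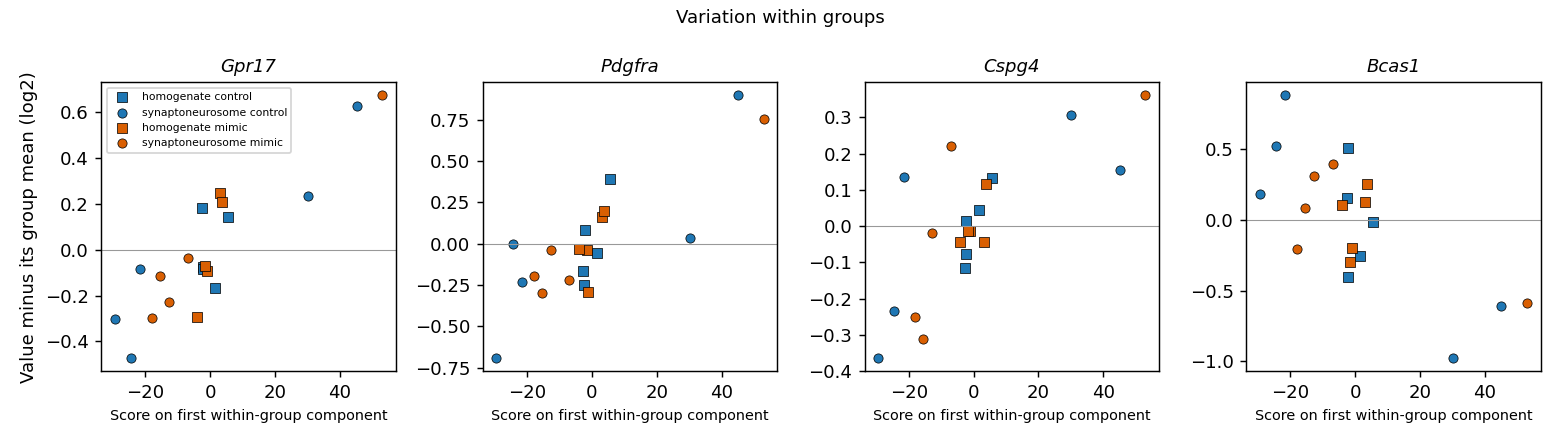
Value minus its group mean (log2) for Gpr17, Pdgfra, Cspg4 and Bcas1 against the score of each array on the first within-group component, with squares for homogenate, circles for synaptoneurosomes, blue for control and orange for mimic. The 3 circles at scores of 30.2, 45.1 and 53.0 lie high for the first 3 genes, except that Pdgfra in control 4 lies near 0, and low for Bcas1.

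Genes whose deviations most resembled the mean z score of the 8 genes over all 20 arrays were Ddr2 (r = 0.883), Abca9 (0.852), Pcsk6 (0.851), Psmd9 (0.844), Tmem125 (0.814) and Ugt8 (0.812), the last encoding an enzyme of myelin galactolipid synthesis. Over the 10 homogenate arrays alone the 6 nearest were Rps12l4 (0.956), Ppp1r3d (0.946), Rin2 (0.943), Pnkd (0.937), Mvb12b (0.935) and Wscd1 (0.927), none of them in the first list. Both lists were picked as the highest r among all tested genes, a choice that raises r, and none of these values was tested.

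Of 17 further precursor markers tested, 8 rose and none fell in each treatment, where 11.8% and 11.0% of all tested genes rose. The median difference was 0.39 in control and 0.32 in mimic rats. Ptprz1, a receptor phosphatase that binds growth factors and matrix, rose by 1.12 ± 0.10 in control rats (n = 5 per group, limma adjusted p = 2.21e-07) and by 1.03 ± 0.10 in mimic rats. Tnr, the matrix glycoprotein tenascin-R, rose by 1.32 ± 0.22 and 1.23 ± 0.22, and Ncan, the proteoglycan neurocan, by 0.61 ± 0.12 and 0.56 ± 0.12. Astrocytes and neurons express these 3 genes as well. When the 3 arrays were left out, 8 rose in control and 7 in mimic rats, with medians of 0.23 and 0.21.

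Partners of the 8 genes in growth factor signalling and matrix went both ways. Of 23 tested, 6 rose and 3 fell in control rats (median 0.26), and 7 rose and 3 fell in mimic rats (median 0.13). Over all tested genes 11.8% rose and 28.0% fell in control rats, and 11.0% rose and 30.8% fell in mimic rats. Itgb1, the integrin beta subunit that lets precursors attach to laminin, rose by 0.75 ± 0.11 and 0.67 ± 0.11 (limma adjusted p = 3.76e-05 and 9.52e-05). Hapln2, a link protein of the matrix at nodes of Ranvier, fell by 0.91 ± 0.15 in control and 0.95 ± 0.15 in mimic rats. Ncan and Tnr stand in this list and in the preceding one. Hapln2 is counted again in the myelin list below, and another partner that fell is counted in the pericyte list. Leaving out the 3 arrays, 9 partners rose in control rats and 8 in mimic rats.

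Of 20 further transcription factors and regulators of the lineage, 7 fell in each treatment, 2 rose in control and 1 in mimic rats, and the medians were -0.10 and -0.12. Most did not pass the test, and 28.0% and 30.8% of all tested genes fell, while 11.8% and 11.0% rose. Tcf4, a basic helix-loop-helix partner of the Olig factors that neurons express too, fell by 0.49 ± 0.10 in control and 0.59 ± 0.10 in mimic rats (n = 5 per group, limma adjusted p = 0.00113 and 0.000198). The histone deacetylases Hdac2 and Hdac1, required in mice for precursors to differentiate, fell by 0.36 ± 0.08 and 0.48 ± 0.14 in control rats and by 0.49 ± 0.08 and 0.62 ± 0.14 in mimic rats. This count depended on the 3 arrays: without them 7 rose and 4 fell in control rats, and 7 rose and 7 fell in mimic rats.

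Of 14 tested genes of committed precursors and newly formed oligodendrocytes, the stages that Gpr17 and Bcas1 mark, 3 rose and 1 fell in control rats (median 0.00), and 2 rose and 1 fell in mimic rats (median -0.02). Over all tested genes 11.8% rose in control and 11.0% in mimic rats. Enpp6, a choline phosphodiesterase of newly formed oligodendrocytes, rose by 0.92 ± 0.27 in control rats (limma adjusted p = 0.0129, n = 5 per group) and differed by 0.63 ± 0.27 in mimic rats (adjusted p = 0.073). Itpr2, an endoplasmic reticulum calcium channel, rose by 0.38 ± 0.11 and 0.50 ± 0.11, and Mycl, a Myc family factor, fell by 0.37 ± 0.11 and 0.35 ± 0.11. Of 19 tested myelin and mature oligodendrocyte genes, none rose and 3 fell in control rats (median -0.07), and none rose and 4 fell in mimic rats (median -0.28), beside the 28.0% and 30.8% of all tested genes that fell. Mog, a myelin surface glycoprotein, fell by 0.82 ± 0.28 and 1.04 ± 0.28, and Aspa, the aspartoacylase of oligodendrocytes, by 0.56 ± 0.14 and 0.59 ± 0.14. Without the 3 arrays 2 myelin genes rose in each treatment, and 4 fell in control and 7 in mimic rats.

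Markers of other cells set the frame for these counts. The shares over all tested genes were again 11.8% higher and 28.0% lower in control rats, and 11.0% and 30.8% in mimic rats. Of 12 astrocyte genes 8 rose and none fell in each treatment (medians 0.46 and 0.39), among them the glutamate transporter genes Slc1a3 (0.82 ± 0.13 in control rats) and Slc1a2 (0.42 ± 0.07). Of 11 microglial genes 5 rose in control and 3 in mimic rats, and Aif1 differed by 0.49 ± 0.07 in control rats and Tyrobp by 0.61 ± 0.12. The microglial median in control rats was 0.41, and 0.00 without the 3 arrays, where 4 genes rose. Neuronal markers were mixed, with 3 of 12 higher and 5 lower in control rats, 1 higher and 7 lower in mimic rats, and Nrgn and Stmn2 lower by limma differences of -1.43 ± 0.13 and -1.12 ± 0.15. All 10 endothelial genes fell, with a median of -2.14 in control and -2.25 in mimic rats and differences of -3.50 ± 0.09 for Flt1 and -3.99 ± 0.12 for Adgrf5. The pericyte genes Rgs5 and Abcc9 had differences of -4.54 ± 0.26 and -1.12 ± 0.07. Among 10 fibroblast genes 1 rose in each treatment, Lum in control rats by 0.79 ± 0.18, while Dcn differed by 1.07 ± 0.56 (adjusted p = 0.134). The lists describe levels, and none of these differences was tested against that of the lineage genes.

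**Figure D5:**
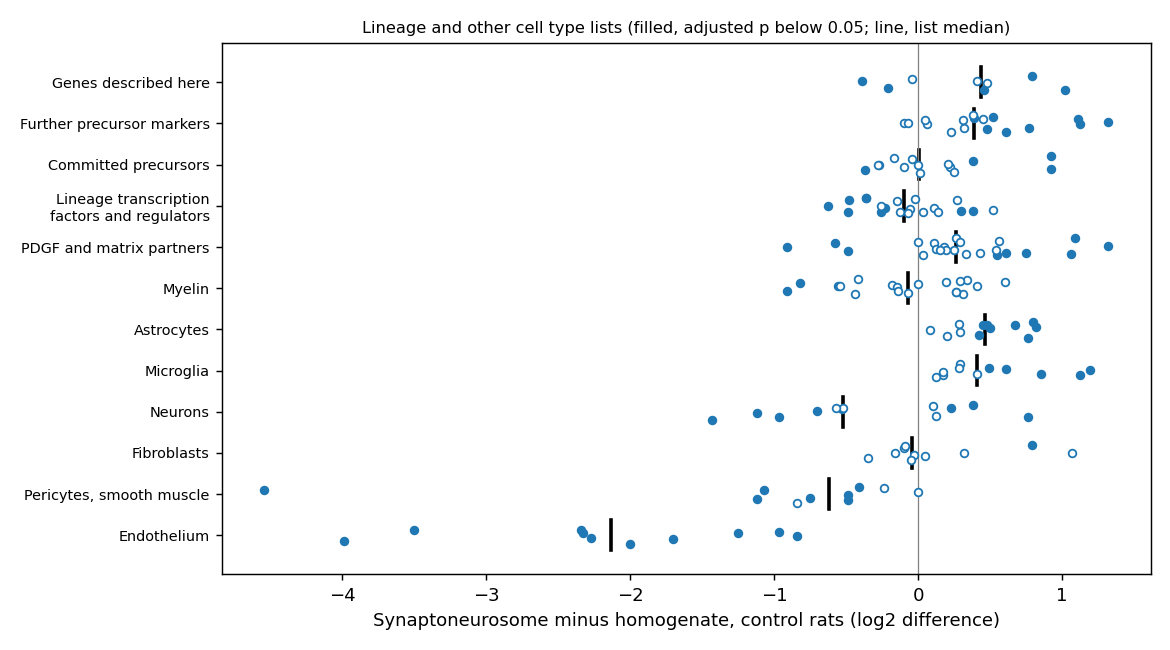
Synaptoneurosome minus homogenate log2 differences in control rats for each tested gene of 12 lists (points, filled where the limma adjusted p was below 0.05) with the list median (black line). The medians of the 8 genes, further precursor markers, astrocytes and microglia lie at 0.43, 0.39, 0.46 and 0.41, those of lineage transcription factors and myelin at -0.10 and -0.07, and endothelium lies lowest at -2.14. Without the 3 arrays that stood apart the first 4 medians were 0.21, 0.23, 0.61 and 0.00.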

How the data were processed

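RNA of the rat ventral hippocampus had been measured on 20 arrays. The authors deposited log2 values per probe set; the submitters' processing notes name Transcriptome Analysis Console and RMA, with no version or setting. The 68842 probe sets ranged from 2.11 to 19.93, with array medians from 5.11 to 5.26 and no missing value. RMA sums probes on the log2 scale and compresses changes of dim transcripts, and the number of arrays limits precision. No 2 replicates were duplicates (smallest mean absolute difference 0.15).

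The platform annotation, which can be old, held 1 symbol for 23446 probe sets and several for 505, while 44891 are unnamed here. Of these names, 22077 were matched by gene number to a current RefSeq gene table. A gene was read from its brightest probe set on average, and the dimmest 30% of genes (mean below 4.97) were not tested. Groups and replicate numbers came from the titles. limma 3.58.1 in R 4.3.3 fitted 4 group means to all 20 arrays with empirical Bayes moderation (16 residual and 2.56 prior degrees of freedom), and p-values were adjusted by Benjamini-Hochberg over 15465 genes. Errors after ± are limma standard errors from a spread shared by the 4 groups, although most of the 8 genes varied more in synaptoneurosomes. Single genes were also tested by exact permutation (scipy 1.17.1, Python 3.11.15). The code was tested on simulated data.

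The members and lists were chosen with earlier results of these data known. Named from each further list are the genes with the smallest limma p in the control fraction comparison, at most 3, or 2 for lists of other cell types. Nearest genes are the 6 with the highest r. List levels are means of a list's log2 values on an array. The tried alternatives were scaling, filters, array weights, an intensity trend, smaller fits, the replicate block and leaving out arrays. The labels do not say whether same-number arrays of the fractions came from the same animal. Within a treatment, deviations from group means correlated over genes in every same-number pair, with r from 0.241 to 0.476 in control and from 0.102 to 0.354 in mimic rats. For homogenate mimic 4 this was 0.102, against at most 0.06 with synaptoneurosome mimic arrays of other numbers. The main fit and the exact tests did not use such pairs. Same-number arrays of the 2 treatments did not all correlate: r was 0.02 to 0.411 in homogenate, and in synaptoneurosomes 0.524 to 0.828 for 4 numbers and -0.305 for number 4. The block within treatment was chosen after seeing the data.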

Additional observations from a re-analysis of the deposited data

Results flagged for a closer look

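Of 32 sets of 5 values (8 genes in 4 groups), 3 held a value that stood far from the other 4 by Dixon's criterion, which chance meets in about 1 of 20 sets. Synaptoneurosome mimic 5 was high in Pdgfra, at 12.70 against 11.65 to 11.91 in the other arrays of its group, and in Gpr17, at 10.58 against 9.61 to 9.87. It is 1 of the 3 arrays that stood apart over all genes. Homogenate mimic 5 was high in Cspg4, at 6.83 against 6.67 to 6.70. Their sources were not tested.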

How the results depend on the processing

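The 5 fraction calls held in both treatments without the 3 arrays that stood apart. Quantile scaling cut the calls among the 8 genes from 5 to 3 in each treatment and raised the share of calls over all genes that were higher in control rats from 29.6% to 49.5%, and in mimic rats from 26.3% to 41.4%; median scaling gave 23.0% and 15.7%, and no filter on dim genes 43.1% and 45.9%. With the replicate block by number over all groups, Pdgfra (0.48 ± 0.13, limma adjusted p = 0.00899) and Gpr17 (0.41 ± 0.14, adjusted p = 0.0244) also passed in control rats, which made 7 calls, as did the block within treatment; neither block changed another call among the 8 genes. Signs turned only for differences that were not called. Quantile scaling gave 0.09 for Olig1 between fractions in control rats, -0.01 for the mimic effect on Pdgfra in homogenate and -0.02 for that on Olig2 in synaptoneurosomes, which was -0.02 under median scaling too. Array weights gave 0.09 for Olig1 and -0.06 for Pdgfra in these comparisons and, for the mimic effect on Bcas1 in synaptoneurosomes, -0.10. Without the 3 arrays Olig1 in control rats was 0.26, Gpr17 between fractions in mimic rats -0.01, the mimic effect in synaptoneurosomes 0.03 on Cspg4, -0.28 on Bcas1 and 0.05 on Gpr17, and its difference between fractions -0.23 for Bcas1. Leaving out 1 array at a time gave -0.31 to 0.23 for Olig1 in control rats and -0.01 to 0.23 for Gpr17 in mimic rats between fractions. For the mimic effect in homogenate it gave -0.16 to 0.07 (Bcas1), 0.00 to 0.21 (Olig1), -0.06 to 0.07 (Olig2), -0.06 to 0.10 (Pdgfra) and -0.04 to 0.16 (Vcan). In synaptoneurosomes it gave -0.15 to 0.32 (Bcas1), -0.12 to 0.04 (Cspg4), -0.24 to 0.09 (Gpr17), -0.38 to 0.16 (Olig1), -0.05 to 0.08 (Olig2), 0.00 to 0.07 (Sox10) and 0.00 to 0.26 (Vcan), and the difference for Bcas1 ran from -0.09 to 0.38. The causes were not tested. Over all settings except the block within treatment, 8 further precursor markers higher became 6 to 11 in control and 7 to 9 in mimic rats, 3 and 4 myelin genes lower became 2 to 5 and 3 to 9, and 7 regulators lower became 3 to 7 and 6 to 8. Other probe sets could not be tried, as each of the 8 genes has 1.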
